A study of Mus musculus with 6 samples.

Results

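The small leucine-rich proteoglycans (SLRPs) examined in native cardiac fibroblasts (CFs) were the 9 genes Dcn, Bgn, Aspn, Lum, Fmod, Prelp, Omd, Ogn and Podn, taken by their gene symbols from a table of 49548 genes. All 9 reached at least 10 counts in at least 2 libraries and were tested. The table holds the mRNA of CFs from 3 WT and 3 CharmeKO samples of C57BL/6J mice aged 5 weeks, and the comparison asks how the loss of the long non-coding RNA Charme bears on the matrix genes of these cells. CharmeKO animals carry a polyadenylation signal inserted into the Charme locus, an allele that is not restricted to fibroblasts. The cells were obtained by dissociating the heart and depleting hematopoietic lineages. The labels also give a growth medium with serum and a fibronectin coating, whereas the study's methods describe native CFs as taken fresh from the tissue. The samples were bulk populations, so that fewer cells of a type and less RNA per cell cannot be told apart. The labels do not tie each library to 1 animal, and the p-values therefore measure the spread between these samples.

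SLRPs are secreted proteins built around a row of leucine-rich repeats, most of which carry a chondroitin, dermatan or keratan sulfate chain. They attach to the surface of collagen fibrils, where they govern the thickness and spacing of the fibrils, and they also hold growth factors such as TGFβ in the matrix. Decorin is so abundant in mesenchymal cells that its transcript is widely used to recognize fibroblasts of the heart.

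The 6 libraries held between 9595701 and 42101393 counts on genes, with the fewest in WT replicate 3. Charme itself had 26, 15 and 4 counts in WT replicates 1, 2 and 3 and 7, 0 and 0 counts in the CharmeKO replicates, and a library without any count could still hold up to 3 by counting error. The fibroblast genes Pdgfra, Tcf21 and 11 others outside the matrix were all detected, and their summed level was between 22748 and 31505 CPM, the TMM-normalized counts scaled to a common library size, in WT and between 24734 and 27240 CPM in CharmeKO. These sums mostly follow 1 of the genes, Gsn, with means of 20829 CPM in WT and 21223 CPM in CharmeKO. Of the 13 genes 9 had negative and 4 positive log2 fold changes, with a median of −0.06. Endothelial markers were also present, at 9535 to 11369 CPM in WT and 9727 to 12123 CPM in CharmeKO for 11 genes, so the samples were not fibroblasts alone. In edgeR 0 of the 13 fibroblast and 0 of the 11 endothelial genes were called. An unadjusted p-value under 0.05 in edgeR was found for 2 fibroblast genes, both lower in CharmeKO. The same held for 4 endothelial genes, of which 3 were higher and 1 was lower in CharmeKO. The median log2 fold change of the endothelial genes was 0.15. DESeq2 called 0 of the fibroblast genes and 1 of the endothelial genes, Vwf, which was lower in CharmeKO. By Xist and Y-linked transcripts, WT replicate 1 and CharmeKO replicates 1 and 2 formed one type of library, with 9196 to 16783 Xist counts, and WT replicates 2 and 3 and CharmeKO replicate 3 the other, with 0 to 67. CharmeKO replicate 1 also held 136 Y-linked counts. This split is unequal between the genotypes, and the difference between genotypes within each type is given for each member.

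To compare levels between genes, the mean CPM over the 6 libraries was divided by the length of the principal transcript in kilobases. Dcn stood at 2017 CPM per kb, rank 12 of the 13791 tested genes with such a transcript, and Bgn at 1044 CPM per kb, rank 31. Lum followed at 269.5 CPM per kb, Prelp at 199.7, Ogn at 106.4, Aspn at 56.7 and Podn at 33.5 CPM per kb. Fmod and Omd were far lower, at 4.80 and 4.18 CPM per kb. Dcn was above Bgn, Bgn above Lum, Prelp above Ogn, Ogn above Aspn and Podn above Fmod in 6 of 6 libraries. The order of Lum and Prelp held in 4 of 6 libraries, that of Aspn and Podn in 5 and that of Fmod and Omd in 4. The exceptions for Lum and Prelp were WT libraries, and those for Fmod and Omd were CharmeKO libraries. These orders are thus not settled, and they were not tested. When all exons of a gene were merged into 1 length, a setting added after the data were seen, Dcn stood at 607 and Bgn at 414 CPM per kb and the order of the 9 genes was the same.

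The SLRP genes did not share one direction between the genotypes. Dcn, Ogn, Lum and Podn had higher means in CharmeKO, Fmod, Prelp and Bgn had lower means, and Aspn and Omd were close to their WT level. None of the 9 passed an adjusted p-value of 0.05 in edgeR's quasi-likelihood test, against 131 of 15789 tested genes, which is 0.83%. DESeq2 called 1 of the 9, Fmod, and 2.5% of all tested genes. The 131 genes called in edgeR were 65 lower and 66 higher in CharmeKO, and a separate fit scaled to fibroblast genes called 49 lower and 76 higher. Of the 9 genes 4, namely Dcn, Ogn, Prelp and Fmod, had an unadjusted p-value under 0.05, where 12.8% of all tested genes did. The median log2 fold change of the 9 genes was 0.02, beside 0.01 for all tested genes, and the values ran from −1.14 for Fmod to 0.51 for Podn. The groups did not overlap for 1 gene that was higher in CharmeKO, Dcn, where 9.57% of tested genes were of that kind, and for 1 that was lower, Fmod, where 8.59% were.

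**Figure D1:**
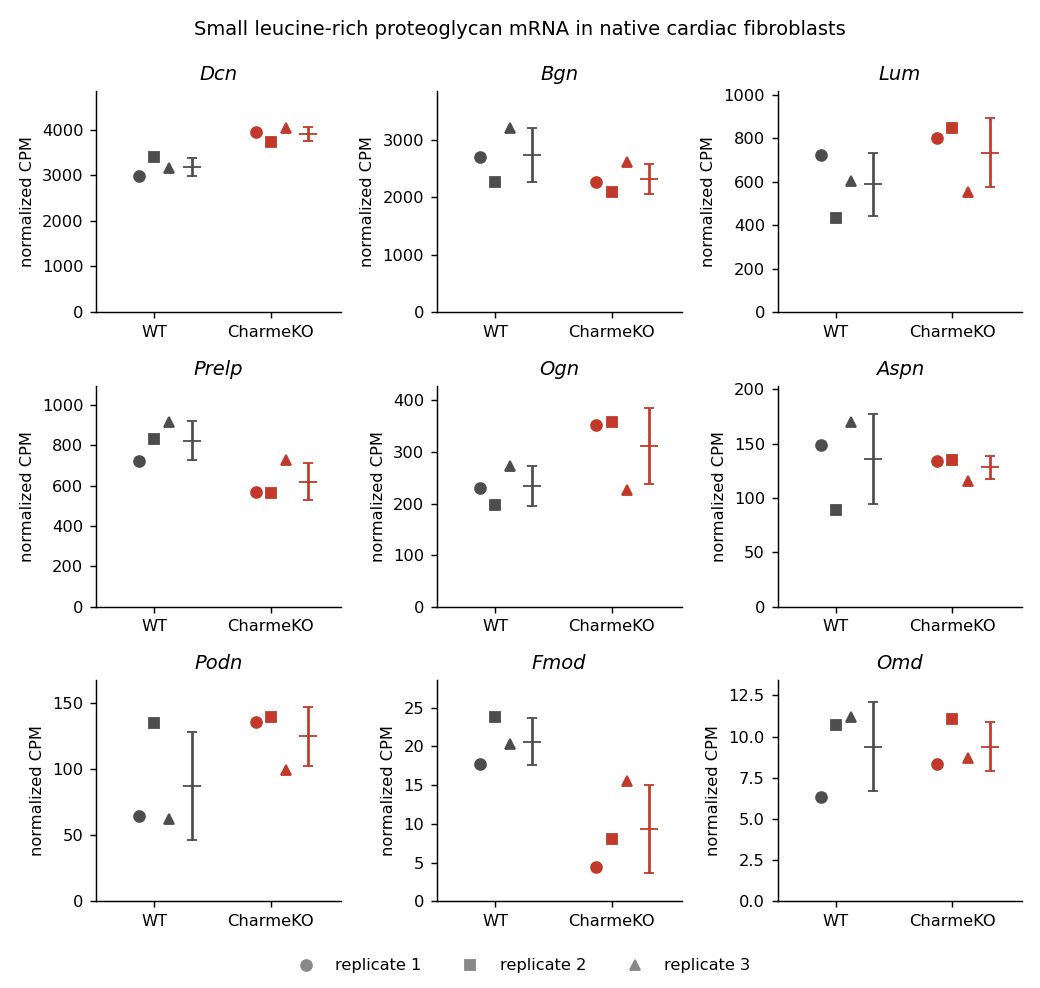
Normalized CPM (y axis, from 0) of the 9 SLRP genes in the 6 libraries of native CFs, ordered by level per transcript length. Each symbol is 1 library, its shape gives the replicate number, and the bars beside the points are the mean ± SD of 3 libraries. All CharmeKO libraries lie above all WT libraries for Dcn and below them for Fmod, and the groups overlap for the other 7 genes.

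Among the class I members, Dcn (ENSMUSG00000019929) encodes decorin, which carries a single sulfated chain and binds fibrils of type I collagen. Dcn was at 2997, 3395 and 3162 CPM in WT replicates 1, 2 and 3 and at 3945, 3729.6 and 4045 CPM in the CharmeKO replicates. The lowest CharmeKO library thus stood above the highest WT library. The means were 3185 ± 199.8 CPM (SD, n = 3) and 3907 ± 161 CPM (SD, n = 3), a 1.23-fold difference, or 0.29 on the log2 scale in edgeR (standard error, SE, of 0.13, 95% interval 0.01 to 0.58, adjusted p = 0.381). Leaving out any 1 library gave log2 fold changes between 0.26 and 0.34, the narrowest such range of the 9 genes. It was 0.36 within the libraries with Xist and 0.30 within those with Y-linked transcripts, a comparison of 1 WT with 2 CharmeKO libraries and of 2 with 1. Its counts were between 29397 and 127470, which alone would give a coefficient of variation of 0.421% in WT, while the libraries varied by 6.27%. Of 10 tested cardiomyocyte genes all 10 had higher means in CharmeKO and 2, Tnni3 and Myh6, were called in edgeR, and Tnnt2, Myl2 and Pln in DESeq2 as well, with summed levels of 309 to 393 CPM in WT and 440.0 to 666 CPM in CharmeKO. Like Dcn, these sums lay higher in every CharmeKO library than in every WT library. Within the genotypes they did not follow Dcn. WT replicate 2 and CharmeKO replicate 3 each had the lowest sum and the highest Dcn of their group. The part of these cells in the difference of Dcn was not tested.

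Bgn (ENSMUSG00000031375), on the X chromosome, encodes biglycan, the closest relative of decorin. Bgn was at 2702, 2272 and 3207 CPM in the WT libraries and at 2262, 2097 and 2607 CPM in the CharmeKO libraries, in the order of their replicate numbers. The groups overlapped, although 2 of the 3 CharmeKO libraries were below every WT library. The log2 fold change was −0.23 (SE 0.16, 95% interval −0.58 to 0.12, adjusted p = 0.590 in edgeR), from 2727 ± 468 to 2322 ± 260.3 CPM (SD, n = 3 in each group). It was −0.10 without WT replicate 3 (adjusted p = 0.920 in edgeR) and −0.05 within the libraries with Y-linked transcripts, against −0.31 within those with Xist.

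Aspn (ENSMUSG00000021388) encodes asporin, which has a run of aspartates in place of the sulfated chain and competes with decorin for collagen. It was at 149, 89.2 and 169 CPM in WT and at 134, 135 and 116 CPM in CharmeKO, so that the CharmeKO values lay inside the WT range. The log2 fold change was −0.08 (SE 0.20, 95% interval −0.51 to 0.35, adjusted p = 0.903 in edgeR). Its direction depended on single libraries, from −0.31 without WT replicate 2 to 0.11 without WT replicate 3. Within the libraries with Xist it was −0.15 and within those with Y-linked transcripts −0.084.

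Of the class II members, Fmod (ENSMUSG00000041559) had the difference farthest from 0. Fmod encodes fibromodulin, a keratan sulfate proteoglycan that shares a binding site on type I collagen with lumican and is known from tendon and heart valves. The 250 bases upstream of its start are shown because Fmod is the member with the most negative log2 fold change. They come from RefSeq on GRCm38.p6, chr1:134037004-134037253, plus strand, an earlier build than the GRCm39 assembly of the counts.
Fmod: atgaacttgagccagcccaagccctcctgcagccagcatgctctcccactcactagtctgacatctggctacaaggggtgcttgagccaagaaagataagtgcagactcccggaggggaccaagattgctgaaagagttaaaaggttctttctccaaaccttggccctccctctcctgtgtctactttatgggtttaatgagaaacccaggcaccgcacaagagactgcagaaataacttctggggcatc
The stretch was searched on both strands for TATAAA, for the AP-1 motif TGANTCA and for CAGACA, which holds the SMAD core. None of the 3 strings was present, and they occur in 12.4%, 6.75% and 17.1% of the 32851 upstream stretches of this length in the same table. Matches to TATAAA, which would be in capitals, occurred upstream of 2 of the 7 members with an entry, Aspn and Ogn, and the other strings upstream of none.

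Fmod was at 17.7, 23.8 and 20.3 CPM in WT replicates 1, 2 and 3 and at 4.44, 8.02 and 15.5 CPM in the CharmeKO replicates. All CharmeKO libraries were below all WT libraries, but CharmeKO replicate 3 was close to WT replicate 1. The mean was 20.6 ± 3.06 CPM in WT and 9.33 ± 5.66 CPM in CharmeKO (SD, n = 3 in each group), 0.453 of the WT level, with a log2 fold change of −1.14 (SE 0.34, 95% interval −1.89 to −0.39, adjusted p = 0.197 in edgeR). The lowest count was 127, in CharmeKO replicate 1, and counting alone would give a coefficient of variation of 7.09% among CharmeKO libraries that varied by 60.7%. Fmod was called by DESeq2 (adjusted p = 0.0231), where 2.5% of tested genes were, by edgeR with no filter on low counts (adjusted p = 1.63e-07), where 2.84% were, and by edgeR without CharmeKO replicate 3 (log2 fold change −1.73, adjusted p = 0.0191), where 1.22% were. With no filter 24579 genes were tested and the log2 fold change was −1.13, beside −1.14 with the filter. The small adjusted p-value of that setting therefore does not stand for a larger difference. Without CharmeKO replicate 1 the log2 fold change was −0.80 (adjusted p = 0.438 in edgeR), and it was −1.42 within the libraries with Xist and −0.48 within those with Y-linked transcripts.

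Markers of 2 other cell types were lower by their sums in the same libraries as Fmod. The summed level of 8 tested genes of a valve and tendon-like list was 51.4, 51.0 and 53.8 CPM in WT and 30.2, 43.2 and 42.2 CPM in CharmeKO, with 7 of 8 lower, 0 called in edgeR or DESeq2 and 1 at an unadjusted p-value under 0.05 in edgeR, and Comp, its most abundant gene, at 24.7 ± 5.80 and 18.5 ± 5.23 CPM (SD, n = 3). The summed level of 7 tested epicardial and mesothelial genes was 57.9 to 75.4 CPM in WT and 34.1 to 41.5 CPM in CharmeKO. All 7 were lower, but the sum mostly follows Wt1, with means of 50.8 CPM in WT and 32.3 CPM in CharmeKO. Wt1, a transcription factor of the epicardium, was called (log2 fold change −0.66, adjusted p = 0.0189 in edgeR). It was also called in DESeq2, but not in edgeR when libraries were scaled to fibroblast genes. No marker of either list was at 0 in all libraries, while 1 of the valve and tendon-like and 5 of the epicardial markers were at 0 in at least 1 library. Their part in the difference of Fmod was not tested.

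Lum (ENSMUSG00000036446) encodes lumican, the other keratan sulfate proteoglycan of that collagen site. It was at 722, 434 and 604 CPM in WT and at 801, 847 and 550.5 CPM in CharmeKO, so that the groups overlapped. The log2 fold change was 0.32 (SE 0.20, 95% interval −0.13 to 0.77, adjusted p = 0.557 in edgeR). By the type of library the values of Lum did not overlap, with 722 to 847 CPM in the 3 libraries with Xist and 434 to 604 CPM in the 3 with Y-linked transcripts. Within these types the log2 difference between genotypes was 0.19 and 0.10, and with a term for the split in edgeR it was 0.14 (adjusted p = 0.831).

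Prelp (ENSMUSG00000041577) encodes a proline- and arginine-rich SLRP that ties basement membranes to the collagen beneath them. It was at 724, 833 and 914 CPM in WT and at 571, 565 and 725 CPM in CharmeKO, and only CharmeKO replicate 3 and WT replicate 1 overlapped. The mean was 824 ± 95.3 CPM in WT and 620.3 ± 90.7 CPM in CharmeKO (SD, n = 3 in each group), a log2 fold change of −0.41 (SE 0.15, 95% interval −0.73 to −0.09, adjusted p = 0.283 in edgeR). It was between −0.54 and −0.33 when any 1 library was left out, and −0.35 and −0.27 within the 2 types of library. The ranges of Prelp in these types nearly touched, at 565 to 724 CPM with Xist and 725 to 914 CPM with Y-linked transcripts. The types are unequal between the genotypes, and a difference between them was not tested.

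Omd (ENSMUSG00000048368), which encodes osteomodulin, an SLRP of mineralized tissue, was the least abundant member. It was at 6.32, 10.7 and 11.2 CPM in WT and at 8.35, 11.1 and 8.72 CPM in CharmeKO. The groups overlapped fully, with a log2 fold change of 0.02 (SE 0.23, 95% interval −0.50 to 0.53, adjusted p = 0.984 in edgeR), and the interval spans differences in both directions at 281 counts or fewer in each library. The log2 difference was 0.54 within the libraries with Xist and −0.30 within those with Y-linked transcripts.

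Ogn (ENSMUSG00000021390) is the class III member and encodes osteoglycin, also called mimecan. Its upstream stretch is shown as that of a member with a higher mean in CharmeKO. It comes from RefSeq on GRCm38.p6, chr13:49607765-49608014, plus strand, and the capitals mark TATAAA on both strands, as overlapping matches near the far end of the stretch.
Ogn: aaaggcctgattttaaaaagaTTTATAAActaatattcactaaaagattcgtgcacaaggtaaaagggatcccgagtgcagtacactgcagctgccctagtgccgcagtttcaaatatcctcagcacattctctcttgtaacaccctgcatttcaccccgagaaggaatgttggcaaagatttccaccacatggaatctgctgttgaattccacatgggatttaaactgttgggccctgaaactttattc
Ogn was at 231, 197 and 274 CPM in WT and at 352, 357 and 226.5 CPM in CharmeKO. CharmeKO replicates 1 and 2 were above every WT library and CharmeKO replicate 3 was inside the WT range. The log2 fold change was 0.42 (SE 0.18, 95% interval 0.01 to 0.82, adjusted p = 0.380 in edgeR), from 234 ± 38.2 to 312 ± 74.0 CPM (SD, n = 3 in each group). It was 0.62 within the libraries with Xist and −0.037 within those with Y-linked transcripts.

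Podn (ENSMUSG00000028600), of class V, encodes podocan, which binds type I collagen and is known from smooth muscle. It was at 64.9, 135 and 62.7 CPM in WT and at 136, 139 and 99.3 CPM in CharmeKO. WT replicate 2 stood at the CharmeKO level, while the other WT libraries were below all 3 CharmeKO libraries. Within the libraries with Xist the log2 difference was 1.07 and within those with Y-linked transcripts 0.11. The log2 fold change was 0.51 (SE 0.26, 95% interval −0.06 to 1.07, adjusted p = 0.445 in edgeR). Without WT replicate 2 it was 0.97 and Podn was called (adjusted p = 0.00636 in edgeR), as were 2.25% of the genes tested in that fit. With no filter on low counts Podn was also called (adjusted p = 0.00845 in edgeR), as were 2.84% of genes there. The log2 fold change of that fit was again 0.51, so its small adjusted p-value does not stand for a larger difference. DESeq2 did not call Podn (adjusted p = 0.673). By the span of the genes Podn overlaps Scp2 on the same strand, and whether their exons share bases was not examined.

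**Figure D2:**
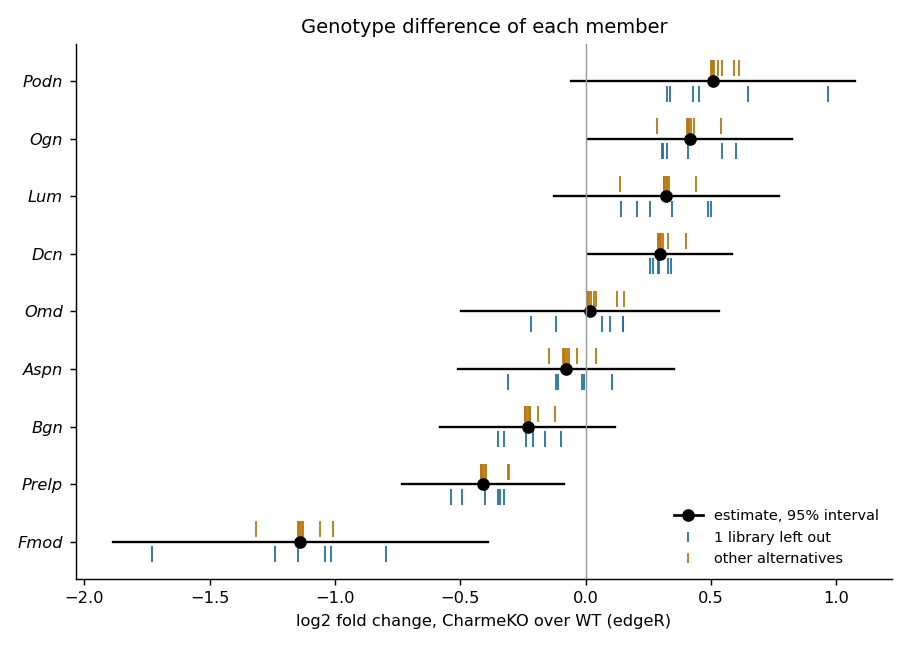
Log2 fold change of each SLRP gene in CharmeKO over WT (x axis). Black points and lines are the edgeR estimate and its 95% interval from 3 libraries a group, blue ticks below leave out 1 library each, and brown ticks above are the other alternatives over all libraries. Fmod is at −1.14 and Podn at 0.51, and single libraries move these 2 genes the most.

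The summed level of the family overlapped between the groups, while the shares of Dcn, Prelp and Fmod in it did not. These shares were not tested, and a higher share of 1 gene lowers the shares of others. By their levels, 9.57% of all tested genes were higher in CharmeKO without overlap and 8.59% were lower. The summed CPM of the 9 genes was 7614, 7390.0 and 8425 in WT and 8213, 7891 and 8394 in CharmeKO. Dcn made up 39.4%, 45.9% and 37.5% of this sum in WT and 48.0%, 47.3% and 48.2% in CharmeKO, without overlap. Bgn made up 34.8 ± 3.72% in WT and 28.4 ± 2.36% in CharmeKO (SD, n = 3 in each group), with an overlap of CharmeKO replicate 3 and WT replicate 2. Prelp made up 10.5 ± 0.922% in WT and 7.58 ± 0.918% in CharmeKO, without overlap, and Fmod, Omd, Podn and Aspn each took at most 2.01% in all libraries.

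**Figure D3:**
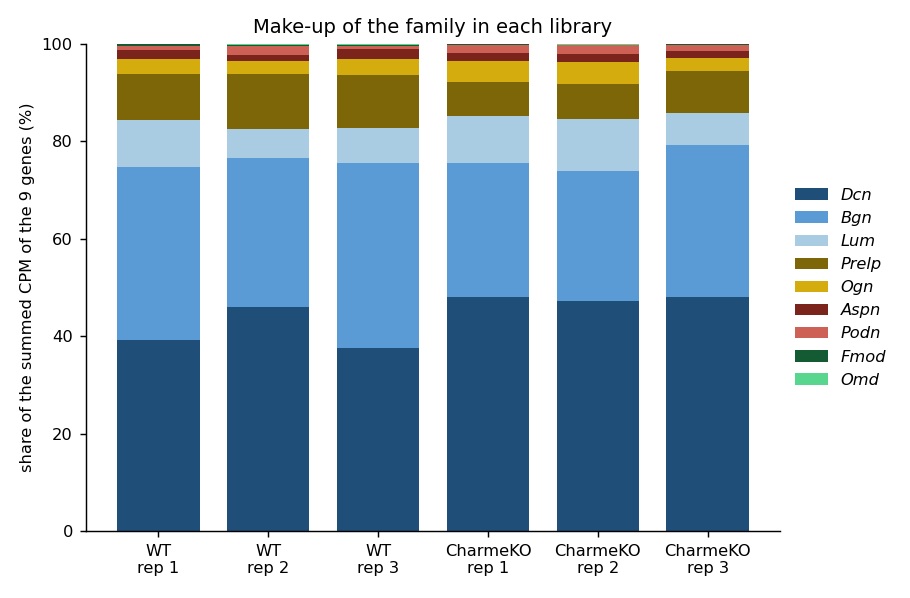
Share of each SLRP gene in the summed normalized CPM of the 9 genes (y axis, percent), with 1 bar for each library. Dcn takes between 47.3% and 48.2% in the CharmeKO libraries and between 37.5% and 45.9% in the WT libraries.

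Ratios of counts within a library do not depend on how libraries are scaled. The log2 ratio of Dcn to Bgn was 0.15, 0.58 and −0.02 in WT and 0.80, 0.83 and 0.63 in CharmeKO. Each CharmeKO value was above each WT value, although WT replicate 2 came within 0.054 of CharmeKO replicate 3. The mean was 0.24 ± 0.31 in WT and 0.76 ± 0.11 in CharmeKO (SD, n = 3 in each group), a 1.43-fold higher ratio in CharmeKO (exact permutation test, two-sided, p = 0.1, adjusted p = 0.233 over 7 ratios). With 3 libraries against 3 this test cannot give a p-value below 0.1. Of the 7 ratios 4 were planned. The ratios to collagen genes were chosen after the data were seen and entered the same adjustment. They lowered the adjusted p-value of Dcn to Bgn. The ratios of Lum to Fmod, Aspn to Dcn and Ogn to Omd overlapped between the groups, with differences of 1.64, −0.33 and 0.37 on the log2 scale (exact permutation tests, two-sided, p = 0.2, 0.4 and 0.4).

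Decorin coats fibrils of type I and type III collagen, and its counts were therefore also set against those of Col1a1, Col1a2 and Col3a1, a comparison chosen after the data were seen. The log2 ratio of Dcn to Col1a1 was −0.55, 0.12 and −0.56 in WT and 0.86, 1.11 and 0.33 in CharmeKO. The groups did not overlap and the ratio was 2.13-fold higher in CharmeKO, or 1.09 on the log2 scale (p = 0.1 and adjusted p = 0.233 in the exact permutation test). The ratio to Col1a2 was 1.80-fold higher, also without overlap (exact permutation test, p = 0.1), and that to Col3a1 was 1.90-fold higher, with an overlap of WT replicate 2 and CharmeKO replicate 3 (exact permutation test, p = 0.2). Leaving out any 1 library kept the difference to Col1a1 between 0.92 and 1.31. These ratios reflect the collagens more than Dcn. In edgeR the log2 fold changes of Col1a1, Col1a2 and Col3a1 were −0.77, −0.54 and −0.61, beside 0.29 for Dcn.

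**Figure D4:**
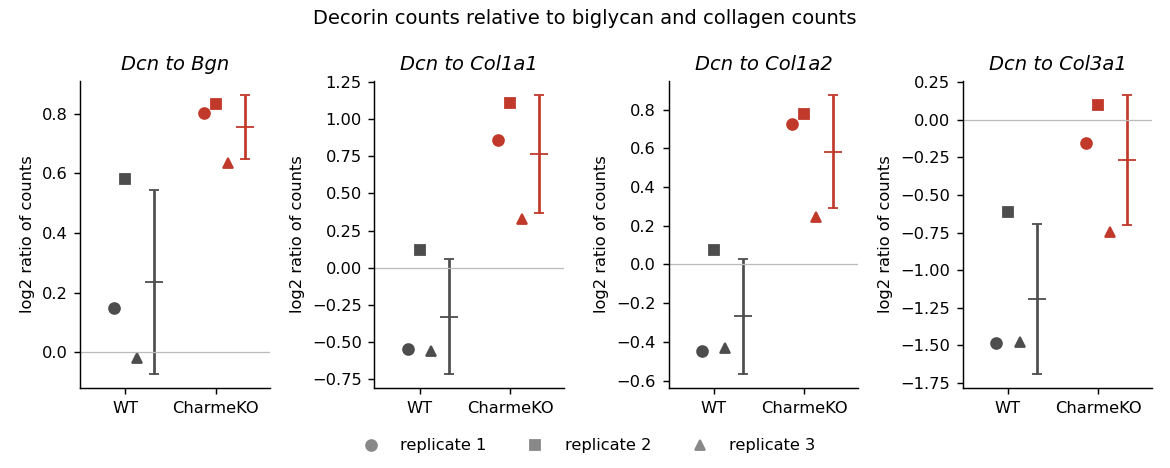
Log2 ratio of the counts of Dcn to those of Bgn, Col1a1, Col1a2 and Col3a1 (y axes, which do not share a scale) in each library. Symbols give the replicate number and the bars the mean ± SD of 3 libraries. CharmeKO lies above WT without overlap for Bgn, Col1a1 and Col1a2, and WT replicate 2 overlaps CharmeKO replicate 3 for Col3a1.

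Most SLRP genes lie next to one another in the genome, which the choice of the 9 genes did not use. By the order of protein-coding genes in GENCODE release M21, Dcn and Lum are neighbours on chromosome 10, followed by Kera and Epyc, Prelp and Fmod are neighbours on chromosome 1 beside Optc, and Ecm2, Aspn, Omd and Ogn follow each other on chromosome 13, with 0 coding genes between them. Prelp and Fmod both had lower means in CharmeKO, while Optc, at 0.906 ± 0.310 and 0.966 ± 0.766 CPM (SD, n = 3), overlapped between the groups. Dcn and Lum both had higher means. On chromosome 13 the log2 fold changes were 0.54 for Ecm2, −0.08 for Aspn, 0.02 for Omd and 0.42 for Ogn. There Ecm2 and Ogn had higher means, while Aspn and Omd between them were close to their WT level. Cenpp runs over Aspn, Omd and Ogn on the opposite strand and had 130 counts in all.

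Of 9 further SLRP genes 7 were tested, and 0 were called in edgeR, with 1 at an unadjusted p-value under 0.05, and 1, Ecm2, in DESeq2. Ecm2, a class I relative of decorin without a sulfated chain, had a mean of 122 ± 11.5 CPM in WT against 178 ± 8.78 CPM in CharmeKO (SD, n = 3 in each group), without overlap, with a log2 fold change of 0.54 (SE 0.12, adjusted p = 0.0699 in edgeR and 0.0022 in DESeq2). Tsku, which encodes tsukushi, an inhibitor of BMP and Wnt signals, was at 25.4 ± 3.05 and 19.3 ± 6.00 CPM (adjusted p = 0.441 in edgeR). Chad, Chadl, Epyc, Nyx and Optc had means of at most 4.34 CPM in both groups. Kera had 4 counts in all, in CharmeKO replicate 3, and Podnl1 had 16 over the 6 libraries.

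The enzymes that build the sulfated chains of SLRPs showed 0 calls in edgeR and in DESeq2 among 26 tested genes for chondroitin and dermatan sulfate and 0 among 6 for keratan sulfate, with median log2 fold changes of −0.06 and −0.17. In edgeR 5 and 0 of them had an unadjusted p-value under 0.05, and DESeq2 gave no adjusted p-value for 1 of the 6. Chpf, a subunit of the chondroitin polymerase and the most abundant of them per length, had a mean of 219.9 ± 39.8 CPM in WT against 152 ± 33.3 CPM in CharmeKO, without overlap (log2 fold change −0.53, adjusted p = 0.243 in edgeR). Ugdh, which makes the UDP-glucuronate for the chains, had a log2 fold change of −0.43 (adjusted p = 0.291 in edgeR), and Papss2, which makes the sulfate donor, one of 0.09 (adjusted p = 0.768 in edgeR). For keratan sulfate, B4galt1, B4galt4 and Chst1 had log2 fold changes of −0.14, 0.37 and −0.20, with adjusted p-values between 0.426 and 0.749 in edgeR.

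The collagens that SLRPs bind were lower in CharmeKO by their means for 9 of 11 tested genes, with 0 called in edgeR, 9 with an unadjusted p-value under 0.05 and a median log2 fold change of −0.64. DESeq2 called 4 of the 11, Col1a1, Col5a2, Col6a2 and Col6a3, all lower. Col3a1, Col1a2 and Col1a1, the most abundant per length, had log2 fold changes of −0.61, −0.54 and −0.77 (adjusted p-values of 0.347, 0.269 and 0.189 in edgeR). Among 11 tested proteases that process or cut SLRPs 0 were called in edgeR, 4 had an unadjusted p-value under 0.05 and the median was −0.26. DESeq2 called 4 of them, with Mmp2, Mmp14 and Bmp1 lower and Tll2 higher. Mmp2, a gelatinase, had a log2 fold change of −0.66 (adjusted p = 0.123 in edgeR), Adamts1, an aggrecanase, one of −0.20 (adjusted p = 0.576), and Pcolce, which enhances the proteinase that trims collagen, one of −0.36 (adjusted p = 0.469). Bmp1, the proteinase that removes the propeptides of biglycan and osteoglycin, had means of 434 ± 50.5 CPM in WT and 291 ± 39.6 CPM in CharmeKO (SD, n = 3 in each group), without overlap (adjusted p = 0.117 in edgeR).

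Of 31 tested ligands, receptors and matrix partners of SLRPs 1 was called in edgeR, Eln, and 4 in DESeq2, Eln, Lrp1, Vwf and Fn1, all lower. Eln, which encodes elastin, a partner of biglycan and decorin in the elastic fibre, was lower in all 3 CharmeKO libraries, by −1.53 on the log2 scale (SE 0.25, adjusted p = 0.0135 in edgeR). Dpt, which encodes dermatopontin, a partner of decorin, was at 660.4 ± 82.5 and 639.6 ± 62.6 CPM in WT and CharmeKO, and Tnxb, which encodes tenascin-X, had a log2 fold change of −0.48 (adjusted p = 0.351 in edgeR). Among 11 tested matrix proteoglycans of other families 0 were called in edgeR, with 6 at an unadjusted p-value under 0.05 and a median of −0.18, and 3 in DESeq2, Hspg2, Col15a1 and Col18a1, all lower. Hspg2, which encodes perlecan, and Col15a1 had log2 fold changes of −0.61 and −0.80 without overlap of the groups, and Vcan, which encodes versican, one of −0.29 (adjusted p-values between 0.159 and 0.744 in edgeR).

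**Figure D5:**
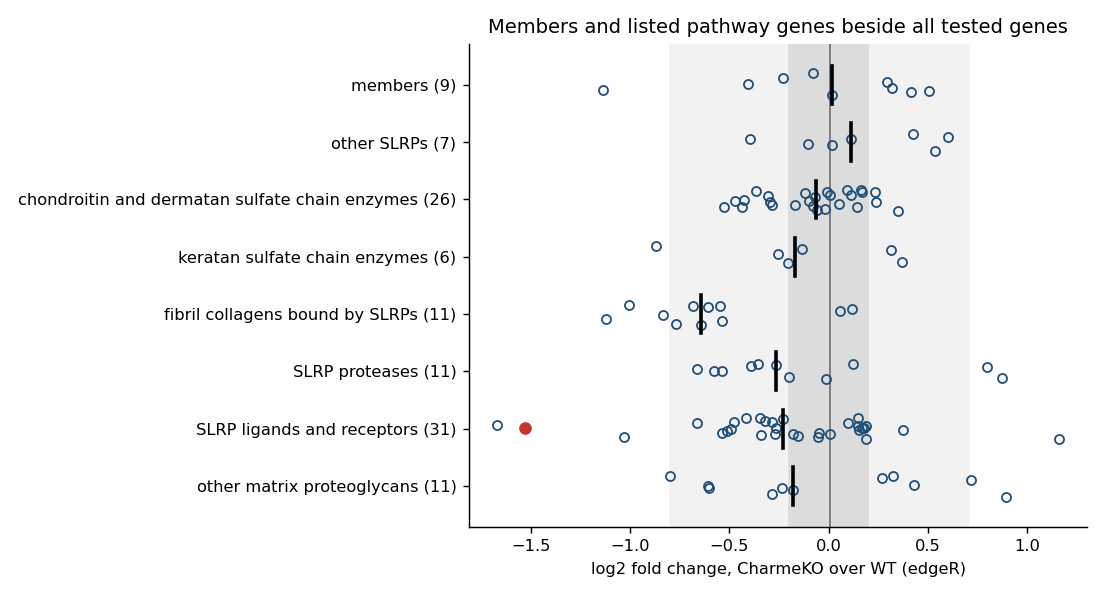
Log2 fold change in CharmeKO over WT (x axis) of the 9 SLRP genes and of the tested genes of 7 lists, with their number in brackets. Each circle is a gene, filled red where it passed the threshold in edgeR, and the black bar is the median of the list; the grey line is the median of all 15789 tested genes, and the dark and light bands hold their middle 50% and 90%. The median of the SLRP genes is 0.02 and that of the collagens −0.64, and Eln is the single gene of these lists called in edgeR.

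Across the 6 libraries, Lum and Ogn were among the most similar pairs of members, with a root mean square difference of 0.17 between their centred log2(CPM + 1) values, as were Bgn and Prelp, also with 0.17. Fmod and Podn were the least similar pair, with 1.11. The mean centred profile of the 9 members lay between −0.071 and 0.12 in all libraries. It averages members of opposite direction and is nearly flat, whereas Fmod alone ran from −1.38 to 0.81. The 5 other tested genes at 10 CPM or more closest to this mean were Reck, Rnf214, Tnks2, Wac and Acin1. Their root mean square differences from it were 0.020 to 0.033, and their log2 fold changes were between −0.06 and 0.01. They are thus genes that varied little, and their likeness to single members was not examined. These likenesses describe 6 libraries that share their genotypes and depths.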

How the data were processed

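Directional mRNA libraries were made with poly(A) beads from native CFs of 3 WT and 3 CharmeKO samples. Reads that passed a quality filter were mapped by the authors to GRCm39 using STAR, and they deposited raw counts per gene, in the reverse strand configuration, on an Ensembl annotation to which Charme was added; the version of STAR is not given in the sources used here, and the submitters' processing notes also name GRCh38 and DESeq2. All counted reads were used, with 0 rows without a gene name.

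The 15789 genes that reached 10 counts in 2 or more libraries were normalized by TMM and tested with edgeR 4.0.16 in R 4.3.3 (quasi-likelihood, genotype only, two-sided, Benjamini-Hochberg over all tested genes, threshold 0.05). The biological coefficient of variation was 20.2%. Standard errors were derived from the F statistics. Single ratios were tested by exact permutation in scipy 1.17.1. Transcript lengths and gene order came from GENCODE M21 on GRCm38 and upstream stretches from RefSeq, where 7 of 9 members had an entry; no protein sequences were used. The test was checked on simulated data. No library duplicated another, with a chi-square of at least 15.3 per degree of freedom between libraries of a group.

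The alternatives were DESeq2 1.42.0, its size factors, upper-quartile normalization, scaling to 13 fibroblast genes, filters of 10 counts in 5 libraries and of 1 count in any, the replicate number as a block, a term for the Xist and Y-linked split, and each library left out. The members and lists were chosen with earlier results of these data known. Genes named besides the members are every further SLRP with a count, the genes called in edgeR and the 3 most abundant per length of each pathway list, the 5 nearest profiles and the markers a result turns on. Bmp1, Comp and the markers Pdgfra, Tcf21 and Gsn were picked after their values were seen. So were the ratios to collagen and the further genes called in DESeq2.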

Additional observations from a re-analysis of the deposited data

How the results depend on the processing

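The number of genes called, 131, was 394 with DESeq2 (240 lower, 154 higher), 699 with no filter on low counts, 302 with the replicate number as a block (187 lower, 115 higher), and between 61 and 349 when 1 library was left out, with 349 without WT replicate 2. The number of SLRP genes called, 0, was 1 with DESeq2 (Fmod), 2 with no filter (Fmod and Podn), 1 with the replicate block (Fmod, log2 fold change −1.31, adjusted p = 0.0337 in edgeR) and between 0 and 1 when 1 library was left out. The replicate numbers were not taken to pair the libraries, since the correlations of the deviations of same-numbered libraries were 0.216, 0.0535 and 0.161, although each library correlated best with its own number. Aspn turned to 0.039 when libraries were scaled to fibroblast genes, which moved the median of all genes by 0.103, and ranged from −0.31 to 0.11 when 1 library was left out. Omd ranged from −0.22 to 0.15 in the same fits and was −0.30 within the libraries with Y-linked transcripts, where Ogn was −0.037. Dcn, Bgn, Lum, Fmod, Prelp and Podn kept their direction in all 16 alternatives each, and Dcn was between 0.26 and 0.40. With 1 library left out, the log2 ratio of Dcn to Bgn differed by 0.39 to 0.69 between the genotypes, and no ratio changed direction in any alternative run. The causes of these differences were not tested. Counting error was largest for Fmod and Omd, the 2 members with the fewest counts. Among CharmeKO libraries it would give coefficients of variation of 7.09% and 6.23%, below the 60.7% and 15.8% by which these libraries varied.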

Other observations

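Other cell types were described by lists of marker genes. The summed levels of 11 mural genes (2679.8 to 3046 CPM in WT and 2631 to 3110.2 CPM in CharmeKO), of 9 leukocyte genes (29.4 to 54.6 and 39.6 to 51.9 CPM) and of 6 erythroid genes (26778 to 39216 and 24417 to 31749 CPM) overlapped between the groups, with 0 called in edgeR and 2, 0 and 1 genes at an unadjusted p-value under 0.05. DESeq2 called 1 of these genes, the mural Cspg4, which was lower in CharmeKO. Those of 5 Schwann cell genes were 22.4 to 23.3 CPM in WT and 26.3 to 27.9 CPM in CharmeKO, with 0 called in edgeR or DESeq2 and 0 at an unadjusted p-value under 0.05 in edgeR. Of 13 genes of the dissociation response Hspa1a and Hspa1b were called in edgeR and in DESeq2, both higher in CharmeKO, and the summed level was 33644 to 49575 CPM in WT and 37869 to 43295 CPM in CharmeKO.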
